A study of Mus musculus with 24 samples.

Results

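The genes described here are 10 genes of cytotoxic lymphocytes and natural killer (NK) cells in leukemic mouse spleen: Prf1, Gzma, Gzmb, Gzmk and Nkg7 of the cytotoxic granule, the NK cell receptor genes Klrb1c, Ncr1 and Klrd1, and the transcription factor genes Eomes and Tbx21. They were chosen by name, as 10 of the 46078 genes in the deposited table, and all 10 passed the minimum that left 16557 genes for the tests. Spleen RNA was sequenced from 24 mice, with 6 mice in each of 4 groups and 1 library per mouse. All were C57BL/6J mice labelled male and 20 weeks old, and all, the AL mice included, carried B-cell acute lymphoblastic leukemia (B-ALL) grown from injected GFP-expressing BCR-ABL cells of the same strain. FMD + VC mice received 4 cycles of a fasting-mimicking diet (FMD), each of 3 days, together with vincristine (VC), a drug that blocks microtubule assembly, at 0.5 mg/kg weekly. AL + VC mice ate chow ad libitum (AL) and received the same vincristine. FMD mice received the diet with vehicle, and AL mice, labelled CTRL, received chow with vehicle. The spleens were taken at the end of treatment.

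Cytotoxic lymphocytes, mainly CD8+ T cells and NK cells, kill target cells by releasing granules. Perforin opens a way through the membrane of the target cell, and granzymes, serine proteases, then cut proteins inside it. NK cells decide between killing and sparing through a balance of activating and inhibitory receptors, many of them encoded in the NK gene complex on mouse chromosome 6, and the T-box factors T-bet (Tbx21) and Eomes direct the maturation of both NK cells and effector T cells. The spleen holds both cell types, so the RNA of a whole spleen cannot assign most of these genes to one of them. In such bulk RNA, fewer cells of a type and less RNA per cell cannot be told apart.

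Values are rlog values, the regularized log2 transformation of size-factor scaled counts that the authors made with DESeq2. A difference of 1 is a doubling on this scale, and the transformation shrinks differences of genes with few reads. No counts were used, so the depth per library is unknown. The median rlog over tested genes was 7.73 in the lowest mouse and 7.86 in the highest. Scaling by size factors brings libraries to a common level, so this narrow range does not bear on depth or quality. Group means ran from 10.24 to 12.64 for the mature B cell gene Ms4a1, 7.64 to 9.91 for the T cell gene Cd3e and 11.78 to 11.92 for the macrophage gene Csf1r. Xist, the RNA of the inactive X chromosome, which male cells are not known to express, had 10.45 to 12.99 in FMD + VC mice, 10.48 to 15.20 in AL + VC mice, 12.43 to 15.28 in FMD mice and 13.88 to 15.68 in AL mice. The Y-linked genes Uty, Kdm5d, Eif2s3y and Ddx3y were present in every mouse, as the label of male has it, with the lowest mouse at 7.76 for Uty, 8.10 for Kdm5d, 8.36 for Eif2s3y and 8.93 for Ddx3y, so that the spleens held Xist and Y-linked RNA together. The Xist level moved with several of the genes below, and its part in their differences was not tested. The pre-B cell receptor gene Igll1, expressed by leukemia cells of this kind, had a median of 3.08 in FMD + VC mice, 4.69 in AL + VC mice, 4.82 in FMD mice and 5.19 in AL mice. Its values were low and overlapped, from 2.89 to 7.16 in FMD + VC mice and 3.20 to 6.76 in AL mice. The authors caution that AL and FMD spleens carried more leukemia cells than vincristine-treated ones, which might confound their comparison of autophagy genes. The part of this burden in the differences below was not tested.

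The 10 genes are protein-coding and lie on 7 chromosomes of GRCm38 in the GENCODE annotation. Prf1 lies on chromosome 10 from 61297833 to 61304680, Gzmb on chromosome 14 from 56258838 to 56262260, Eomes on chromosome 9 from 118478212 to 118486132 and Tbx21 on chromosome 11 from 97098071 to 97115331. Gzma, from 113093825 to 113100981, and Gzmk, from 113171608 to 113225908, are 70.6 kb apart on chromosome 13. Klrb1c, from 128778485 to 128789215, and Klrd1, from 129591782 to 129598775, are 802.6 kb apart on chromosome 6. Nkg7, from 43437073 to 43438249, and Ncr1, from 4337724 to 4345164, lie far apart on chromosome 7. After subtraction of the log2 of the exonic length in kb, the mean rlog over the 24 mice was highest for Nkg7 at 8.26, Klrd1 at 8.01 and Gzma at 7.31. It was 5.25 for Tbx21, 4.97 for Eomes, 4.75 for Klrb1c, 4.62 for Ncr1, 4.44 for Prf1, 4.30 for Gzmb and 3.56 for Gzmk, so that the granule genes stood at both ends of this length-adjusted order.

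**Figure D1:**
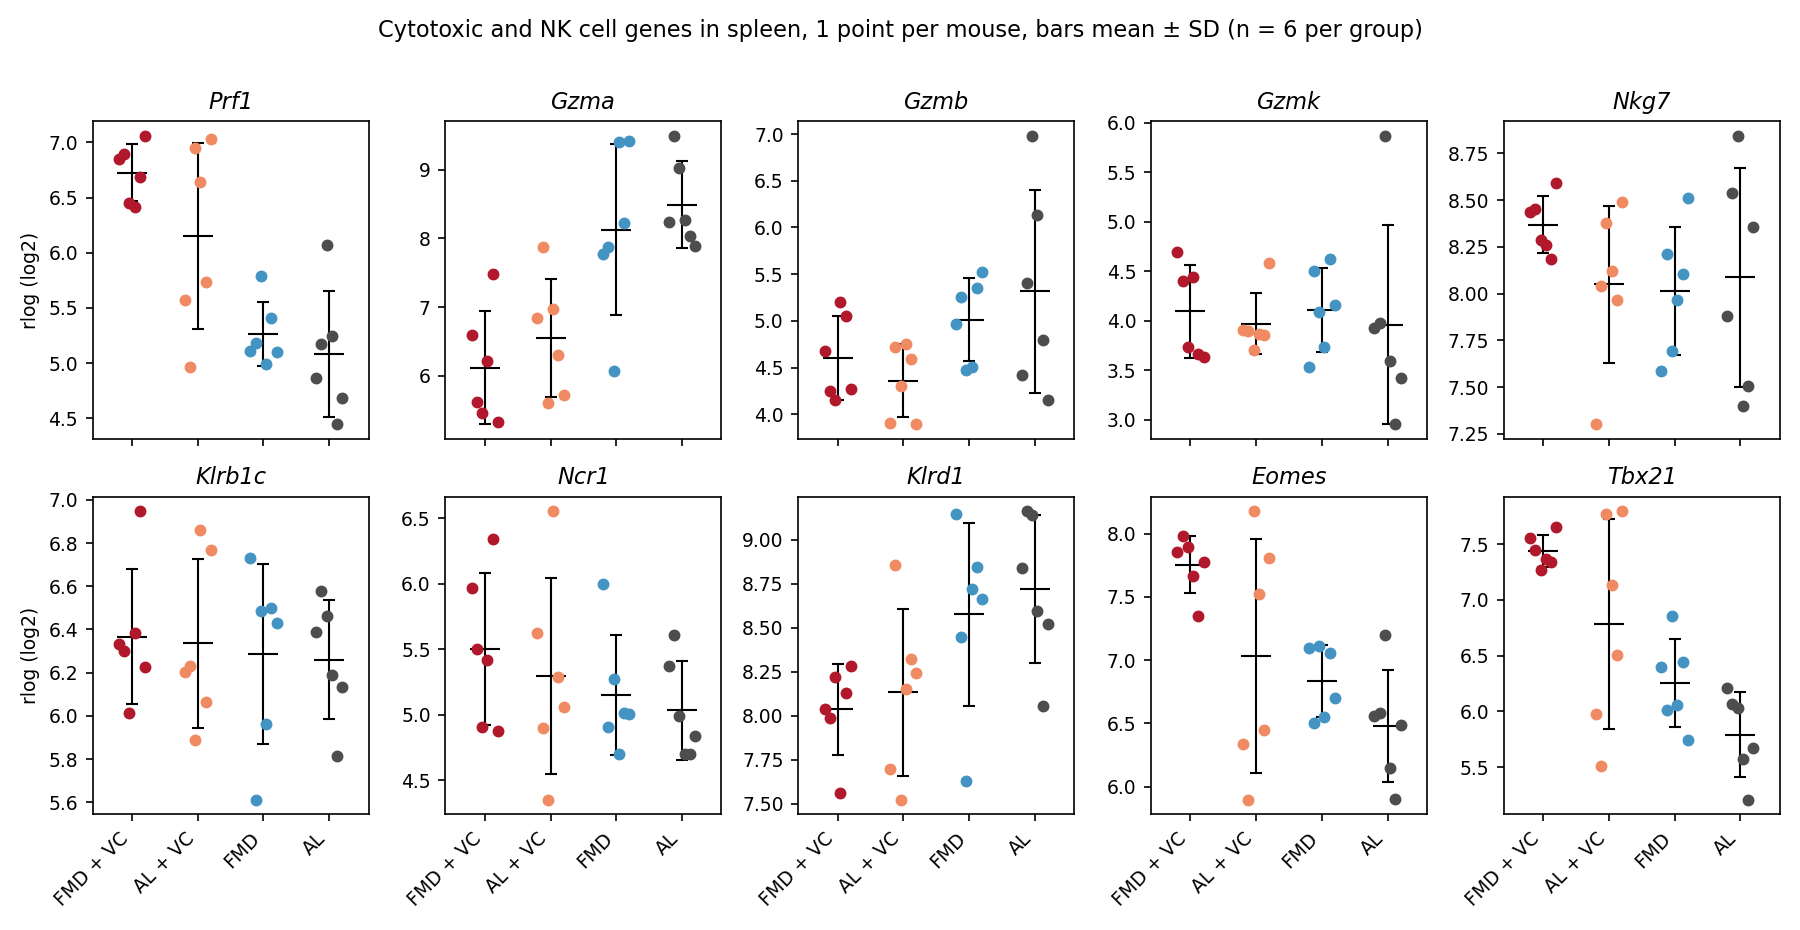
rlog values (log2, vertical axes with a range of their own) of the 10 genes in each mouse, with FMD + VC, AL + VC, FMD and AL from left to right and black bars for the mean ± SD of 6 mice. Prf1, Eomes and Tbx21 of the 6 FMD + VC mice lie above those of all AL mice, Gzma of the FMD + VC mice lies below that of all AL mice, and AL + VC mice are spread most widely for Prf1, Eomes, Tbx21 and Ncr1.

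The first question was how the combined treatment compared with no treatment. In FMD + VC against AL, the 10 genes did not move together. Prf1, Tbx21 and Eomes rose, Gzma and Klrd1 fell, and Gzmb, Gzmk, Nkg7, Klrb1c and Ncr1 did not pass the test (limma, adjusted p under 0.05 over all genes tested). These 5 of 10 calls stand beside a background of 39.5% of all 16557 genes called in this comparison, of which 19.5% were called higher and 20% lower. The median log2 difference was 0.21 over the 10 genes and -0.03 over all genes tested.

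Prf1, which encodes perforin, had a lowest, median and highest rlog of 6.42, 6.77 and 7.06 in FMD + VC mice, against 4.45, 5.02 and 6.07 in AL mice. Every FMD + VC mouse was above every AL mouse. Prf1 rose by 1.65 on the log2 scale (SE 0.30), 3.13-fold, with an adjusted p of 0.000358 by limma.

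Gzma, which encodes granzyme A, had 5.33, 5.92 and 7.48 in FMD + VC mice, against 7.89, 8.25 and 9.49 in AL mice (lowest, median, highest). Here every FMD + VC mouse was below every AL mouse. The log2 difference was -2.37 (SE 0.49), 5.17-fold lower, with an adjusted p of 0.000908 by limma, the largest difference among the 10 genes in this comparison. Prf1 and Gzma thus went in opposite directions in the same spleens, and Prf1 minus Gzma within each mouse was 0.61 ± 0.91 in FMD + VC mice, -0.40 ± 1.62 in AL + VC mice, -2.86 ± 1.50 in FMD mice and -3.41 ± 0.50 in AL mice (log2, mean ± SD, n = 6). All FMD + VC mice lay between -0.80 and 1.73 on this difference and all AL mice between -4.32 and -2.96. These values compare how each gene differs between mice, and not their amounts within a mouse.

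The other granule genes of the 10 did not pass the test. Gzmb, granzyme B, had 4.15, 4.48 and 5.20 in FMD + VC mice, against 4.16, 5.10 and 6.98 in AL mice, a log2 difference of -0.71 (95% interval -1.45 to 0.02, adjusted p = 0.114 by limma). Its AL values were broad, with mice 6 and 25 at 6.98 and 6.13 and the other AL mice at or under 5.40. Without AL mouse 33, the lowest of them, the difference was -0.94 and passed at an adjusted p of 0.0373 in limma, and with limma weights for each library it was -0.78 and passed at 0.0245. Over the 12 fits with a mouse left out, the Gzmb difference ran from -0.94 to -0.38, with adjusted p-values up to 0.332 by limma. Only 1 of these 12 fits passed. Gzmk, granzyme K, which marks a subset of memory T cells, had 3.63, 4.07 and 4.70 in FMD + VC mice, against 2.96, 3.76 and 5.87 in AL mice, with a difference of 0.14 (95% interval -0.56 to 0.83). Nkg7, a granule membrane protein needed for degranulation, had 8.18, 8.36 and 8.59 in FMD + VC mice, against 7.40, 8.12 and 8.84 in AL mice, with a difference of 0.28 (95% interval -0.18 to 0.74). The Nkg7 levels of the FMD + VC mice fell inside the range of the AL mice.

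Both T-box genes rose. Tbx21 had 7.27, 7.41 and 7.65 in FMD + VC mice, against 5.21, 5.85 and 6.21 in AL mice, with no overlap, a log2 difference of 1.65 (SE 0.30) and an adjusted p of 0.000371 by limma. The 6 FMD + VC mice were close to each other, with an SD of 0.14. Eomes had 7.35, 7.82 and 7.98 in FMD + VC mice, against 5.90, 6.52 and 7.19 in AL mice, again with no overlap, a difference of 1.28 (SE 0.30) and an adjusted p of 0.00201. Groups without overlap were found for 3 of the 10 genes in the higher direction and 1 in the lower, where 10.8% and 9.62% of all genes tested had such groups.

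Of the NK cell receptor genes only Klrd1 passed. Klrd1 encodes CD94, which pairs with NKG2 proteins to read the class I molecule Qa-1 and is also made by activated CD8+ T cells. It had 7.56, 8.08 and 8.28 in FMD + VC mice, against 8.06, 8.72 and 9.16 in AL mice, with overlapping groups, a log2 difference of -0.68 (SE 0.23) and an adjusted p of 0.0244 by limma. The call was lost without FMD + VC mouse 42, AL mouse 3 or AL mouse 6, with adjusted p-values up to 0.0615. Klrb1c, which encodes NK1.1, the antigen by which NK cells of this strain are usually recognized, had 6.01, 6.32 and 6.95 in FMD + VC mice, against 5.81, 6.29 and 6.58 in AL mice. Ncr1, which encodes NKp46, the receptor most restricted to NK cells and related innate lymphocytes in mice, had 4.87, 5.46 and 6.34 in FMD + VC mice, against 4.70, 4.91 and 5.61 in AL mice. The differences were 0.11 (95% interval -0.30 to 0.52) for Klrb1c and 0.47 (95% interval -0.16 to 1.10) for Ncr1, and both groups overlapped widely. Klrb1c belongs to a family of similar genes, so reads could be shared with its copies.

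**Figure D2:**
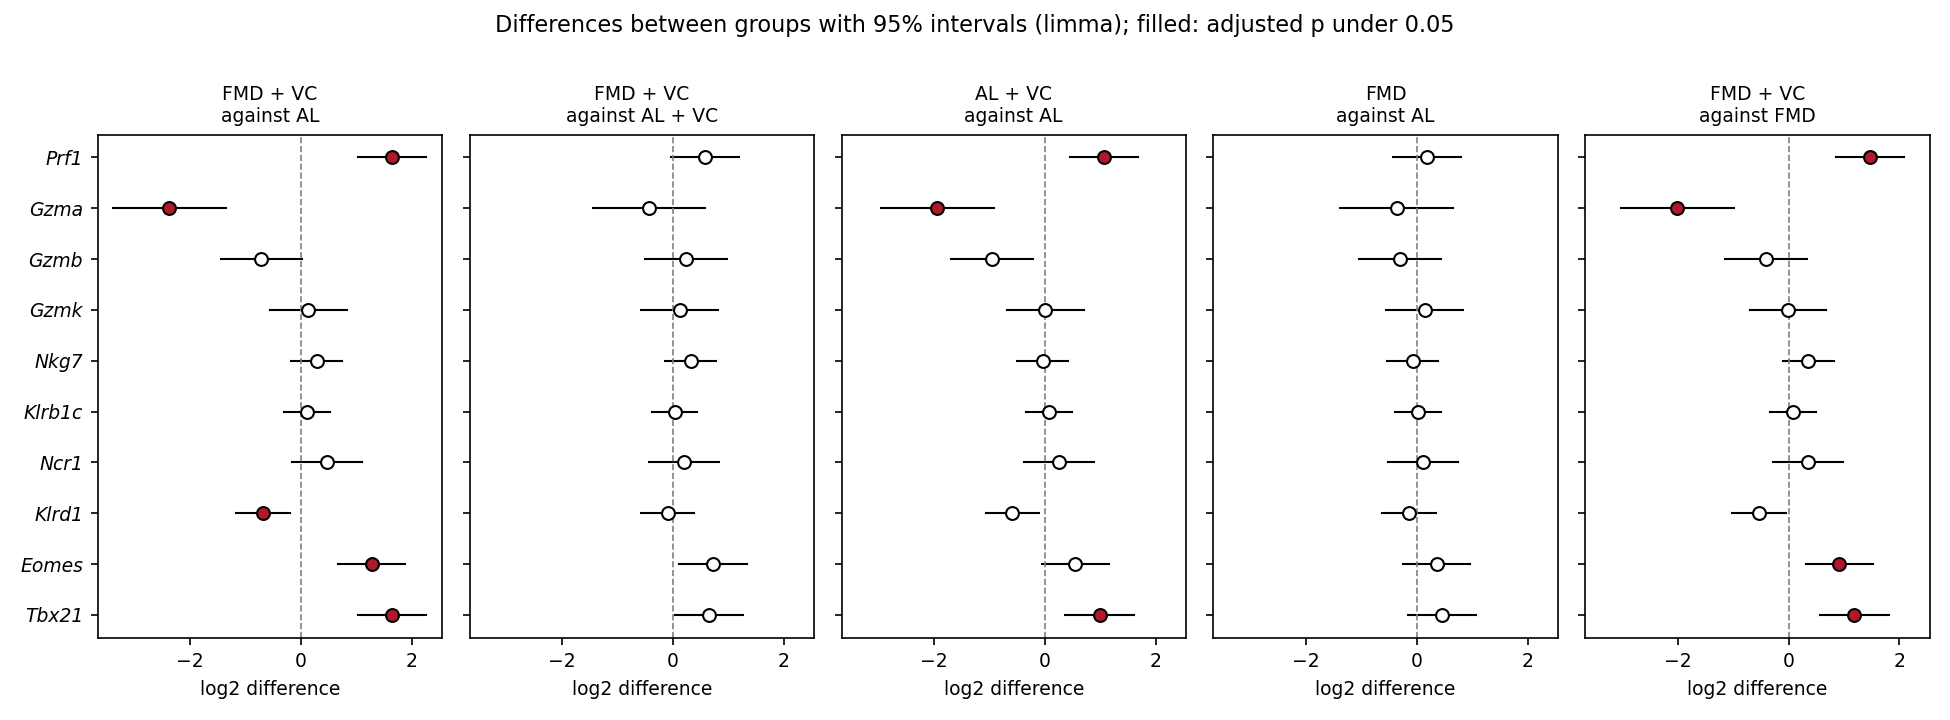
log2 difference of each gene (horizontal axes) in 5 comparisons with 95% intervals from limma over 24 mice, filled where the adjusted p was under 0.05. Prf1 and Gzma are filled on opposite sides of 0 in FMD + VC against AL, AL + VC against AL and FMD + VC against FMD, and no gene is filled in FMD + VC against AL + VC or FMD against AL.

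To ask what the diet added to vincristine, FMD + VC mice were compared with AL + VC mice. None of the 10 genes passed, where the background was 0% of all genes, and 2 of the 10 had an unadjusted p under 0.05, as did 1878 of all genes (limma). These 2 were Eomes, with a log2 difference of 0.72 (95% interval 0.11 to 1.33, adjusted p = 0.427), and Tbx21, with 0.66 (95% interval 0.04 to 1.27, adjusted p = 0.427). Prf1 differed by 0.58 (95% interval -0.04 to 1.19) and Gzma by -0.43 (95% interval -1.45 to 0.58). The other 6 genes lay between -0.10 for Klrd1 and 0.32 for Nkg7. With limma weights for each library, which gave AL + VC mice 17, 18 and 41 weights of 0.270, 0.443 and 0.413 and FMD + VC mouse 29 a weight of 7.29, Prf1 at 0.96, Eomes at 1.19 and Tbx21 at 0.98 passed, together with 2475 genes higher and 2491 lower of all tested.

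For Tbx21, Eomes, Prf1 and Ncr1 the AL + VC group had the largest SD of the 4 groups, and for Gzmb and Gzmk the smallest. Tbx21 stood at 7.77, 7.13 and 7.79 in AL + VC mice 17, 18 and 41, and at 5.98, 5.51 and 6.51 in AL + VC mice 13, 14 and 37. Mice 17 and 41 were thus slightly above the FMD + VC range of 7.27 to 7.65, and mouse 18 slightly below it. Eomes stood at 8.18, 7.52 and 7.81 in AL + VC mice 17, 18 and 41 and at 6.34, 5.90 and 6.45 in AL + VC mice 13, 14 and 37. Prf1 stood at 6.95, 6.64 and 7.03 in AL + VC mice 17, 18 and 41 and at 5.57, 4.97 and 5.74 in AL + VC mice 13, 14 and 37. The same mice were therefore high for all 3 genes, and the SD of Tbx21 was 0.94 in AL + VC mice, 0.14 in FMD + VC mice, 0.39 in FMD mice and 0.38 in AL mice. Gzma was low in AL + VC mice 17 and 41, at 5.61 and 5.72, but at 6.97 in AL + VC mouse 18.

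Vincristine alone was examined in AL + VC against AL. Prf1 and Tbx21 rose and Gzma fell, 3 of 10 genes against a background of 6.45% of all genes called, 3.92% higher and 2.53% lower. Prf1 had a lowest, median and highest value of 4.97, 6.19 and 7.03 in AL + VC mice, against 4.45, 5.02 and 6.07 in AL mice, a log2 difference of 1.07 (SE 0.30, adjusted p = 0.0389 by limma). Tbx21 had 5.51, 6.82 and 7.79 in AL + VC mice, against 5.21, 5.85 and 6.21 in AL mice, a difference of 0.99 (SE 0.30, adjusted p = 0.0489 by limma). Both groups overlapped for these genes. Gzma had 5.61, 6.57 and 7.87 in AL + VC mice, against 7.89, 8.25 and 9.49 in AL mice, without overlap but with only a small gap, and a difference of -1.94 (SE 0.49, adjusted p = 0.0305 by limma). Groups without overlap in the lower direction were found for 0.58% of all genes.

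These 3 calls depended on single mice. None of the 10 genes passed without AL + VC mouse 17, 18 or 41 or without AL mouse 3 or 33, 1 passed without AL mouse 6, 25 or 32, and none passed when only the 12 mice of the groups compared entered the fit. The log2 difference of Gzma stayed between -2.20 and -1.74 as each mouse was left out in turn. Gzmb at -0.95 (adjusted p = 0.0920), Klrd1 at -0.59 (adjusted p = 0.111) and Eomes at 0.55 (adjusted p = 0.221) did not pass by limma, and the others lay between -0.04 for Nkg7 and 0.26 for Ncr1. This comparison and FMD + VC against AL share the AL mice.

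The diet alone gave no call. In FMD against AL, none of the 10 genes passed by limma, where the background was 0%, and 0 of the 10 had an unadjusted p under 0.05, as did 707 of all genes. The log2 differences ran from -0.36 for Gzma (95% interval -1.38 to 0.65) to 0.46 for Tbx21 (95% interval -0.16 to 1.08). Gzma of the FMD mice spanned 6.07 to 9.41, against 7.89 to 9.49 in AL mice, with FMD mouse 9 as the lowest. The same FMD mouse 9 had the highest Tbx21 and Prf1 of its group, at 6.86 and 5.79.

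In FMD + VC against FMD, which asks what vincristine added to the diet, Prf1, Tbx21 and Eomes rose and Gzma fell, 4 of 10 genes against a background of 23.5% of all genes, 12.6% higher and 10.9% lower. Prf1 had 6.42, 6.77 and 7.06 in FMD + VC mice, against 4.99, 5.15 and 5.79 in FMD mice, a log2 difference of 1.46 (SE 0.30, adjusted p = 0.00308 by limma). Tbx21 had 7.27, 7.41 and 7.65 in FMD + VC mice, against 5.75, 6.23 and 6.86 in FMD mice, a difference of 1.19 (SE 0.30, adjusted p = 0.00823 by limma). Eomes had 7.35, 7.82 and 7.98 in FMD + VC mice, against 6.50, 6.88 and 7.11 in FMD mice, a difference of 0.92 (SE 0.30, adjusted p = 0.0284 by limma). The groups did not overlap for these 3 genes, as for 5.96% of all genes in the higher direction. Gzma had 5.33, 5.92 and 7.48 in FMD + VC mice, against 6.07, 8.05 and 9.41 in FMD mice, and differed by -2.01 (SE 0.49, adjusted p = 0.00700 by limma), with overlapping groups. The Eomes call was lost when FMD + VC mouse 21, 29, 30 or 46 or FMD mouse 8, 11 or 34 was left out, with adjusted p-values up to 0.0613, as it was when the mean of the pre-B cell receptor genes Igll1 and Vpreb1 entered the fit, at 0.75 (adjusted p = 0.0603 by limma).

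The interaction of diet and vincristine, the difference between the diet's effect with the drug and without it, was called for none of the 10 genes and for 0% of all genes by limma, where 0 of the 10 and 504 of all genes had an unadjusted p under 0.05. It ran from -0.07 for Gzma to 0.55 for Gzmb on the log2 scale, with 95% intervals of -1.50 to 1.36 for Gzma and -0.50 to 1.59 for Gzmb. The Gzma difference was of like size under both diets, -2.01 in FMD + VC against FMD and -1.94 in AL + VC against AL.

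Across the groups, the mean of Tbx21 was in the order FMD + VC at 7.44 ± 0.14, AL + VC at 6.78 ± 0.94, FMD at 6.25 ± 0.39 and AL at 5.79 ± 0.38 (SD, n = 6). Prf1 followed the same order, at 6.73 ± 0.26, 6.15 ± 0.85, 5.26 ± 0.29 and 5.08 ± 0.57 in these groups, and so did Eomes, at 7.75 ± 0.23, 7.03 ± 0.92, 6.84 ± 0.28 and 6.48 ± 0.44. Gzma ran the other way, at 6.12 ± 0.82, 6.55 ± 0.85, 8.13 ± 1.24 and 8.49 ± 0.63. FMD + VC and AL + VC did not pass a test against each other for any of these genes, nor did FMD and AL. Ncr1 and Klrb1c had the same order of means as Tbx21, but no comparison of groups passed for either, with 5.50 ± 0.58 in FMD + VC mice and 5.03 ± 0.38 in AL mice for Ncr1, and 6.37 ± 0.31 in FMD + VC mice and 6.26 ± 0.28 in AL mice for Klrb1c.

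The 10 genes also differed in which of them varied together over the 24 mice. Pearson correlations of rlog values are given as a description, and part of each comes from differences between the groups, so the value after subtraction of the group means stands beside it. Prf1, Tbx21 and Eomes formed one set, with r of 0.93 (0.86 after subtraction) for Prf1 and Tbx21, 0.90 (0.87) for Prf1 and Eomes and 0.94 (0.90) for Eomes and Tbx21. Gzma and Klrd1 varied together, with r of 0.73 (0.54), and Gzma and Gzmb with 0.61 (0.45). Gzma and Tbx21 had an r of -0.77 (-0.50) and Gzma and Prf1 of -0.74 (-0.35). Among the 10 genes, Klrb1c and Ncr1 were closest to each other, with r of 0.71 (0.72), and were only weakly correlated with Tbx21, at 0.31 and 0.29.

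T cell genes moved with the first set. The genes most like Prf1 among 13851 named genes were Ms4a4b, Cd3e and Trac, each with r of 0.96, and for Eomes they were Egr2, Skap1 and Cd5, each with r of 0.96. For Tbx21 they were Ier5 with r of 0.97, Syt11 with 0.97 and Klf2 with 0.97, and its r with Cd3e was 0.97 (0.92 after subtraction of group means). Nkg7, outside that set, was most like Thy1, Nsg2 and Lck, with r of 0.94, 0.92 and 0.92. Its r was only 0.51 (0.49 after subtraction) with Cd3e and 0.41 (0.33) with Cd8a. Cd3e and Trac encode parts of the T cell receptor complex, Thy1 is a T cell surface protein, Lck is the kinase of the T cell receptor, and Cd5 is found on T cells. In FMD + VC against AL, 19.5% of all genes were called higher. Of the 10 measured T cell genes on the list, 9 rose in that comparison by limma, among them Cd8b1 by 2.98, Cd8a by 2.29, Cd3e by 2.27 and Cd3g by 1.93. Lck, with a mean of 10.94 in FMD + VC mice and 10.54 in AL mice, did not pass. The log2 of the summed level of the 10 T cell genes ran from 12.62 to 13.52 in FMD + VC mice, 11.55 to 13.37 in AL + VC mice, 11.74 to 12.49 in FMD mice and 11.03 to 12.41 in AL mice, with no gene of the list at 0.

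Tbx21 and Eomes minus Cd3e, and Prf1 minus Cd8a, were not higher in FMD + VC mice than in the other groups. Such values compare how each gene differs between mice, not amounts within a mouse, and rlog shrinks differences of genes with few reads. Tbx21 minus Cd3e within each mouse was -2.47 ± 0.30 in FMD + VC mice, -2.15 ± 0.32 in AL + VC mice, -1.80 ± 0.33 in FMD mice and -1.85 ± 0.34 in AL mice (log2, SD, n = 6). Eomes minus Cd3e was -2.16 ± 0.25 in FMD + VC mice, -1.90 ± 0.38 in AL + VC mice, -1.22 ± 0.36 in FMD mice and -1.16 ± 0.27 in AL mice. Prf1 minus Cd8a was -3.08 ± 0.27 in FMD + VC mice, -2.67 ± 0.46 in AL + VC mice, -2.63 ± 0.41 in FMD mice and -2.44 ± 0.27 in AL mice. Each of these differences was lowest in FMD + VC mice, and the part of the T cell genes, the B cell genes and Xist in the rise of Prf1, Tbx21 and Eomes was not tested. The 8 mature B cell genes on the list rose as well, 8 of 8 in FMD + VC against AL, with a summed level of 15.02 to 15.59 in FMD + VC mice, 13.36 to 15.34 in AL + VC mice, 13.48 to 14.74 in FMD mice and 12.82 to 13.84 in AL mice. The B cell gene Ms4a1 had an r of 0.93 (0.82 after subtraction of group means) with Tbx21, 0.89 (0.70) with Prf1 and 0.84 (0.72) with Eomes. Xist ran against the same 3 genes, with r of -0.87 (-0.69) for Tbx21, -0.87 (-0.67) for Prf1 and -0.84 (-0.71) for Eomes. Of the genes of other cells in the same comparison, 3 of 9 pre-B cell genes, 6 of 10 erythroid genes and 5 of 10 neutrophil genes fell by limma, and 1 neutrophil gene rose. These counts and that of the B cell genes stand beside 39.5% of all genes called, 19.5% higher and 20% lower. The 3 pre-B cell genes that fell were Erg, Myb and Sox4. The pre-B cell receptor genes Igll1 and Vpreb1 and the genes Rag1, Dntt and Il7r of that list did not pass. None of 7 macrophage and 5 plasmacytoid dendritic cell genes passed, where 2 of the macrophage genes and 0 of the dendritic cell genes had an unadjusted p under 0.05. Of the 5 sex-linked genes, Xist fell and the Y-linked Kdm5d, Uty, Eif2s3y and Ddx3y rose.

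**Figure D3:**
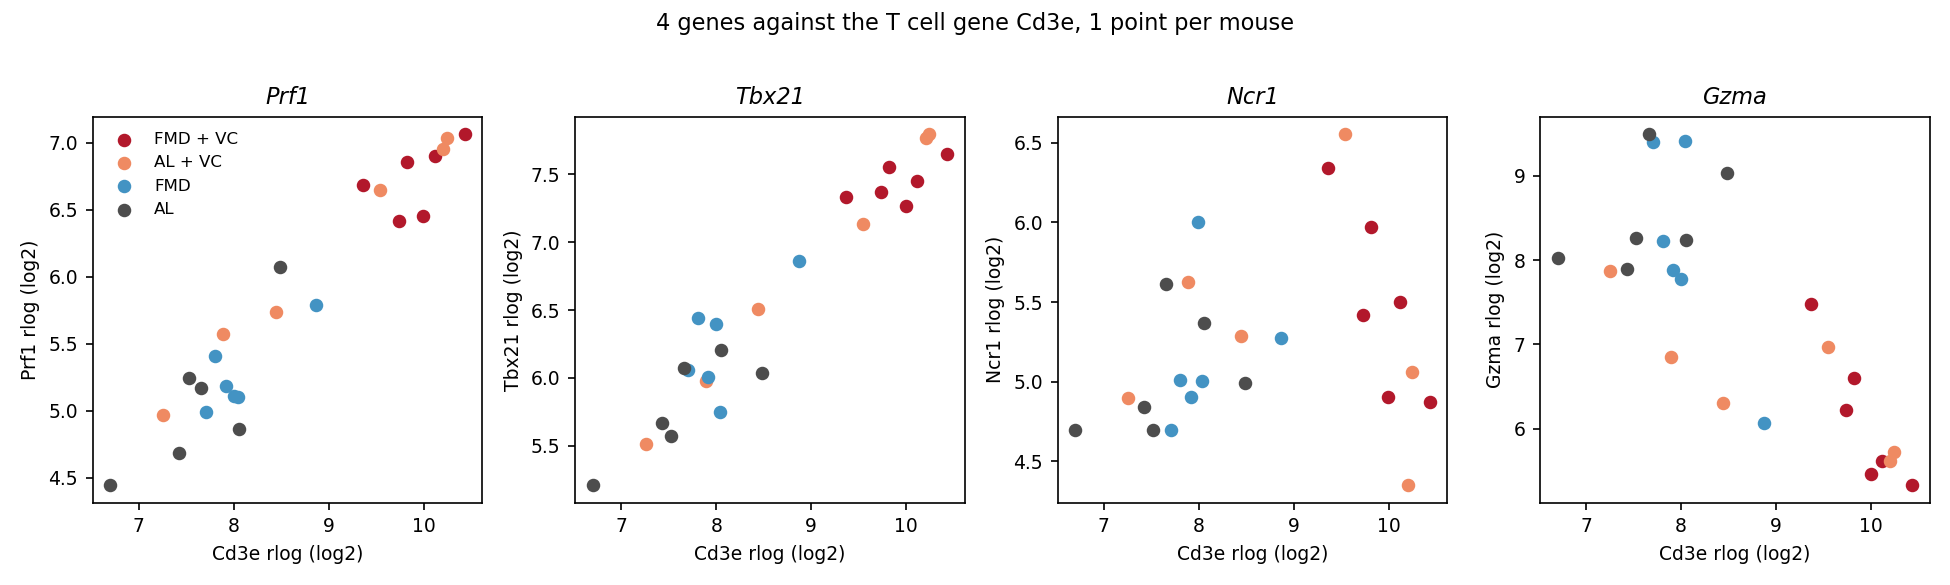
rlog values (log2) of Prf1, Tbx21, Ncr1 and Gzma (vertical axes) against that of the T cell gene Cd3e (horizontal axes), with 1 point per mouse coloured by group. Prf1 and Tbx21 climb with Cd3e over the 24 mice, with r of 0.96 and 0.97, Gzma declines with an r of -0.79, and Ncr1 shows little relation, with an r of 0.22.

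Gzma had other partners than Prf1. Galc, a lysosomal galactosidase, St18, a zinc finger protein, and Pdia5, a disulfide isomerase of the endoplasmic reticulum, were the genes most like it, with r of 0.93, 0.90 and 0.90 over the 24 mice, and the same 3 led after subtraction of the group means, with 0.86, 0.87 and 0.81. Its r with Xist was 0.81 (0.59 after subtraction) and with Igll1 0.42 (0.36). The mean of Vpreb1 and Igll1, both subunits of the pre-B cell receptor, was also entered as a covariate. The Gzma call in FMD + VC against AL then remained, at -2.11 (adjusted p = 0.00295 by limma). Klrd1 no longer passed in that fit (adjusted p = 0.0574 by limma). Both covariate genes were low in FMD + VC mice, with medians of 3.09 for Vpreb1 and 3.08 for Igll1, and their groups overlapped. In AL + VC against AL they hardly differed, by 0.09 for Vpreb1 and -0.17 for Igll1. This covariate may therefore not follow leukemia burden, which was not measured in these libraries. The part of that burden in the fall of Gzma was not tested. Of the mast cell and basophil genes, 2 of 9 were above the minimum. Both fell in FMD + VC against AL, beside 20% of all genes called lower, Cpa3 by 2.96 and Prss34 by 1.38 on the log2 scale. The summed level of that list ran from 5.45 to 6.36 in FMD + VC mice, 5.70 to 8.17 in AL + VC mice, 6.07 to 8.52 in FMD mice and 6.97 to 8.37 in AL mice, and its part in the fall of Gzma was not tested. The genes most like Klrd1 were S100a4, Tm9sf2 and Siae, with r of 0.88, 0.88 and 0.87.

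For the remaining genes the nearest partners were less close. Ncr1 was most like Klri2, an NK cell receptor gene, with r of 0.84, then Hpgd with 0.81 and Tns3 with 0.80. Klrb1c was most like Adamdec1, Slc8a1 and Adap2, with r of 0.79, 0.77 and 0.75. After subtraction of the group means it was most like Clec4a4, Adamdec1 and Naip2, with 0.82, 0.82 and 0.80. All of these were above its r with Ncr1, 0.71 (0.72 after subtraction). Gzmb was most like Cndp2, Lgals3 and Ifitm3, with r of 0.82, 0.79 and 0.76, and after subtraction of the group means like the interferon-induced genes Iigp1 and Cxcl10, both with 0.79. Gzmk was most like Ccl8, a chemokine, with r of 0.83, then Ighv1-85 and Itih4 with 0.71 and 0.70.

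Further lists of related genes are read against the same background in FMD + VC against AL, 39.5% of all genes called, 19.5% higher and 20% lower. Of 19 other granule genes, 13 were above the minimum, and in FMD + VC against AL 4 rose, 1 fell and 8 did not pass by limma, a share of calls near that background, with a median log2 difference of 0.15. Serpinb9, an inhibitor of granzyme B in mice, rose by 0.52, Ctsw, a cathepsin of cytotoxic cells, by 0.66, and Gzmm, granzyme M, by 0.63. Gzmm had 4.04, 4.62 and 5.15 in FMD + VC mice, against 3.71, 4.03 and 4.17 in AL mice (lowest, median, highest). Rab27a, a small GTPase needed for granule docking, fell by 1.14, with 9.50 to 9.70 in FMD + VC mice, against 10.02 to 11.31 in AL mice, without overlap. The granzyme genes Gzmc, Gzmd, Gzmf and Gzmg, known from activated killer cells, had group means under 0 on the rlog scale and were under the minimum, and Gzme and Gzmn are listed at 0 in every mouse.

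Of 25 other NK cell receptor genes in the table, 18 were above the minimum, and 6 rose, 4 fell and 8 did not pass in FMD + VC against AL, beside 19.5% of all genes called higher and 20% lower, with a median log2 difference of 0.27. Cd226, an activating adhesion receptor of T and NK cells, rose by 0.96 (SE 0.13), with 7.90, 8.21 and 8.41 in FMD + VC mice, against 6.98, 7.22 and 7.53 in AL mice. Klra7, an inhibitory Ly49 receptor that reads class I molecules, rose by 1.44, with 4.24, 4.88 and 5.28 in FMD + VC mice, against 2.68, 3.46 and 3.79 in AL mice. Klre1 rose by 1.14, and Hcst, the DAP10 adaptor of NKG2D, by 0.91. In the other direction, Cd244, a receptor for CD48 also found on myeloid cells, fell by 1.10, Klrb1b, an inhibitory receptor for Clr-b, by 1.45, Klrb1f by 1.02, and Cd160 by 0.75. Klrb1b had 4.95, 5.18 and 5.54 in FMD + VC mice, against 5.98, 6.64 and 7.53 in AL mice, with no overlap. Klrb1b and Klrb1f lie in the same gene family as Klrb1c, whose groups overlapped, and Klra and Klrb genes are similar enough to share reads.

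Cytokine genes that act on these cells also went both ways. Of 13 measured genes, 6 rose, 3 fell and 4 did not pass in FMD + VC against AL, with a median log2 difference of 0.50. Il21r, the receptor of interleukin 21, rose by 1.52, and Il15, the survival cytokine of NK cells and memory CD8+ T cells, by 0.71, with 5.09, 5.50 and 5.66 in FMD + VC mice, against 4.47, 4.70 and 5.01 in AL mice. Il12rb2, a chain of the interleukin 12 receptor, fell by 1.13, and Il18rap, a chain of the interleukin 18 receptor, by 1.77. Il18rap had 8.82, 9.05 and 10.14 in FMD + VC mice, against 10.03, 11.10 and 11.36 in AL mice. The highest FMD + VC mouse was thus above the lowest AL mouse.

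**Figure D4:**
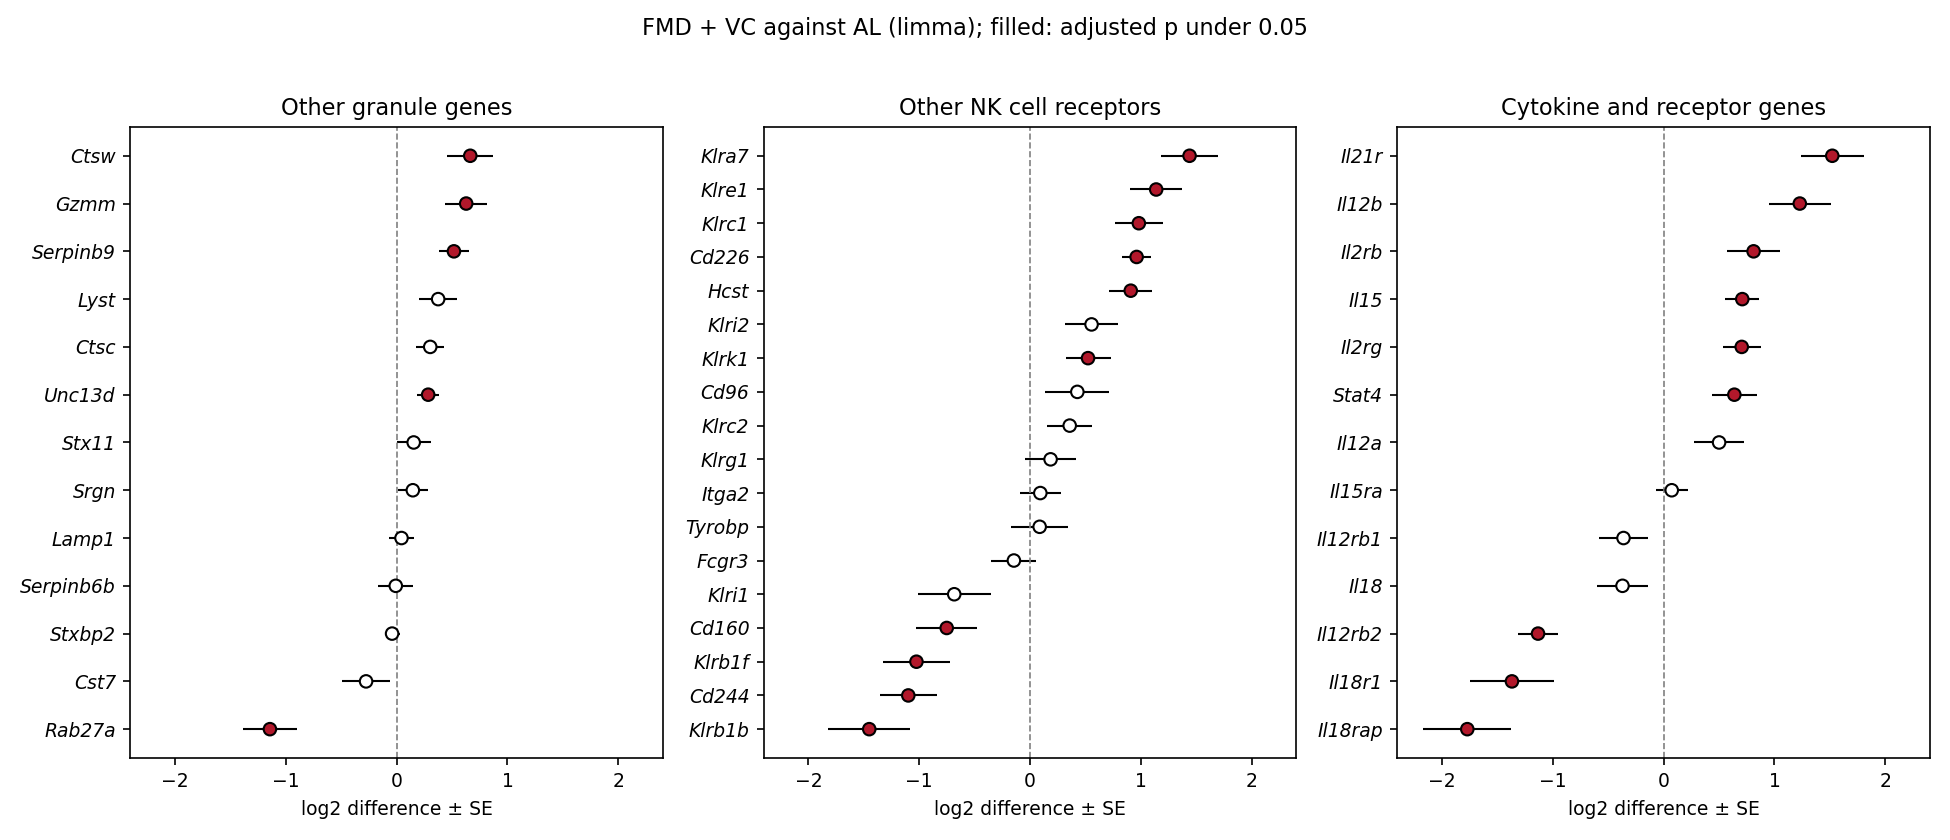
log2 difference ± SE in FMD + VC against AL (horizontal axes) for 13 other granule genes, 18 other NK cell receptor genes and 13 cytokine and receptor genes above the minimum, filled where the adjusted p was under 0.05 by limma. Each of the 3 lists holds filled points on both sides of 0, from -1.77 for Il18rap to 1.52 for Il21r.

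Effector cytokines, other transcription factors and homing receptors were counted in the same way. Of 8 effector cytokine genes, 7 were above the minimum, and of these 2 rose and 5 did not pass in FMD + VC against AL. Ccl5, a chemokine stored by memory CD8+ T cells, rose by 1.40, and Fasl, the death ligand of killer cells, by 0.52, while Ccl3 at -0.71 and Xcl1 at 0.61 did not pass. Ifng, with a mean of 3.13 in FMD + VC mice and 2.73 in AL mice, was under the minimum and not tested. Of 9 other transcription factor genes of these lineages, 2 rose and 2 fell, again beside 39.5% of all genes called. Ets1, a factor of T, B and NK cells, rose by 1.26 and Prdm1, which encodes Blimp-1, by 0.71, while Nfil3, needed for NK cell development, fell by 1.01 and Tox by 0.76. Of 6 homing and maturation genes, 5 were above the minimum, Cma1 being under it, and 4 rose: Cxcr6 by 0.85, Cxcr3, a known T-bet target, by 0.98, Cx3cr1 by 0.55 and Cd27 by 0.78.

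The granule, receptor and cytokine lists were also counted in the other comparisons. In AL + VC against AL, where 6.45% of all genes were called, Rab27a at -0.85 was called of the granule genes, Cd226 at 0.69, Klra7 at 0.89 and Klrb1b at -1.59 of the receptor genes, and Il21r at 0.95 and Il12rb2 at -0.79 of the cytokine genes by limma. In FMD + VC against FMD, 5 of 13 granule genes rose and 1 fell, 5 of 18 receptor genes rose and 3 fell, and 4 of 13 cytokine genes rose and 3 fell, beside 12.6% of all genes called higher and 10.9% lower. In FMD against AL no gene of these lists passed.

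The sequence before the RefSeq start of transcription was read for the 9 of the 10 genes with an entry among the RefSeq promoters of GRCm38.p6, which held 10 starts. These starts do not always match the GENCODE gene ends given above. Windows of 250 bases before the start were searched on both strands for the core of the T-box site, GGTGTG, for a longer T-box half-site, AGGTGTGA, which contains that core, and for a RUNX site, TGTGGT, bound by a family of factors active in killer cells. The RUNX letters were found in 6 of 9 genes, Gzma, Gzmb, Prf1, Nkg7, Klrb1c and Ncr1, and in 14% of 32851 promoters in the table. The T-box core was found in 2 of 9, Gzmk and Nkg7, and in 16.3% of all promoters. The longer half-site was found in 1, Nkg7, beginning 14 bases before its RefSeq start, and in 1.12% of all promoters. The GENCODE gene of Nkg7 begins further upstream, at 43437073, so its T-box matches lie inside that gene. The windows of Gzmk and Klrb1c also lie inside their GENCODE genes. The Gzmb window begins at 56262335, while its GENCODE gene, on the minus strand, ends at 56262260. Neither T-box gene held any of these letters. A match is a description of the letters alone, and the RUNX letters were found both before Prf1, which rose, and before Gzma, which fell. The bases from 140 before the start are shown for these 2 genes and for Gzmb and Ncr1, which did not pass in FMD + VC against AL, 5′ to 3′ on the strand of the gene, with RUNX letters in capitals. For Prf1 they end 4 bases before the RefSeq start, where the GENCODE exon begins.
Prf1, chr10:61297696-61297832, plus strand: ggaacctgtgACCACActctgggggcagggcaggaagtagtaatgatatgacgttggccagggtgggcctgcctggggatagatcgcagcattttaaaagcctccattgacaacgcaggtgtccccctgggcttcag
Gzma, chr13:113100982-113101121, minus strand: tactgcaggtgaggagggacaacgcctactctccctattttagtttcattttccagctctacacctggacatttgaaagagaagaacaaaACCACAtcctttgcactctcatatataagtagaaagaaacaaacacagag
Gzmb, chr14:56262335-56262474, minus strand: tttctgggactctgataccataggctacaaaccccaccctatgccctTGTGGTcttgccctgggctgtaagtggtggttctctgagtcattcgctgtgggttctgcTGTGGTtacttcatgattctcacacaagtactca
Ncr1, chr7:4337575-4337714, plus strand: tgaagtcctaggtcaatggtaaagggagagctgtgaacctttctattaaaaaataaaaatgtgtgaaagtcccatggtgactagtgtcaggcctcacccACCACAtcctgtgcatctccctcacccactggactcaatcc
The RUNX letters begin 130 bases before the start in Prf1, 50 in Gzma, 93 and 34 in Gzmb and, at the first of its 2 starts, 41 in Ncr1. Ncr1 held a further match 176 bases before that start, outside the stretch shown.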

How the data were processed

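Spleen RNA of 24 mice, 6 per group, was sequenced by the authors from libraries depleted of ribosomal RNA. Alignment to GRCm38 used HISAT2 2.1.0 and gene counting HTSeq 0.6.1, and the authors deposited log2 values from the regularized logarithm (rlog) of DESeq2. Reads that overlapped several genes were excluded by the authors. The strand setting and depth are not given in the sources used here. Whether overlapping genes on opposite strands were told apart is therefore unknown, and precision rests on the spread between mice. Groups came from the labels. Of 46078 genes, 16557 passed a minimum of 3.32 (10 on the linear scale) for their average over all mice and were tested with limma 3.58.1 in R 4.3.3, with eBayes and a trend, 1 coefficient per group and 20 residual degrees of freedom. P-values were adjusted by Benjamini and Hochberg over all genes of a comparison, with a threshold of 0.05, and 95% intervals are those of limma without adjustment. The study's count test was not run, as no counts were used here.

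The genes and lists were chosen with earlier results of these data known. All 10 genes are given in every comparison, with the 3 genes of highest Pearson correlation for each. From each other list the count per direction is given, with up to 4 genes of smallest adjusted p in FMD + VC against AL and any granule or receptor gene called against the majority. The lists cover other granule genes, other NK cell receptors, effector cytokines, lymphocyte transcription factors, cytokines and their receptors, homing and maturation, T cells, mature B cells, pre-B cells, erythroid cells, neutrophils, macrophages, mast cells and basophils, plasmacytoid dendritic cells, and sex-linked genes. A summed level is the log2 of the sum of the values on the linear scale. The name Cd28 occurs more than once and was left out. The other settings were no minimum, a minimum of 50, quantile normalization, only the groups compared, library weights (arrayWeights), a covariate made from the average of Vpreb1 and Igll1, and leaving out each mouse. The script was tested on simulated data. Plots used matplotlib 3.10.9 (Python 3.11.15).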

Additional observations from a re-analysis of the deposited data

Results flagged for a closer look

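Each of the 10 genes was checked in each of the 4 groups for a mouse far from the other 5, which gave 40 checks, of which chance alone marks about 1 in 20. Gzmk was at 4.58 in AL + VC mouse 41, while the other 5 AL + VC mice lay between 3.70 and 3.91, so that the gap was 0.765 of the range of the group, above the critical value of 0.625. Gzmk was at 5.87 in AL mouse 6, while the other 5 AL mice lay between 2.96 and 3.98, a gap of 0.649 of the range. AL mouse 6 also had the highest Gzmb, Prf1, Eomes and Nkg7 of the AL mice, at 6.98, 6.07, 7.19 and 8.84. Without AL mouse 6 the Gzmk difference in FMD + VC against AL was 0.52 on the log2 scale, against 0.14 with it.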

How the results depend on the processing

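Over the 6 comparisons, the direction and the side of the threshold were the same in 729 of 840 values with a mouse left out and in 300 of 332 values under other settings. In FMD + VC against AL, Prf1, Tbx21, Eomes and Gzma passed in all settings run. The count of genes called in FMD + VC against AL + VC was 3 with library weights in place of 0. With weights it was also 6 in FMD + VC against AL, in place of 5, and 6 in FMD + VC against FMD, in place of 4, and with the Vpreb1 and Igll1 covariate 4 and 3 in these comparisons. In AL + VC against AL it was 1 with no minimum, 2 with quantile normalization, where Tbx21 no longer passed, 0 with only the groups compared and 1 with library weights, in place of 3, and 0 to 4 with a mouse left out. All genes called in that comparison numbered 649 higher and 419 lower, 316 and 179 with no minimum, 85 and 173 with weights, 0 with only the groups compared, and 1095 and 948 with the Vpreb1 and Igll1 covariate. The causes were not tested.

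Reversed directions were found only for differences that did not pass. With library weights, the log2 difference was -0.10 for Klrb1c in FMD + VC against AL, -0.23 for Gzmk and -0.13 for Klrb1c in AL + VC against AL, 0.065 for Gzmb, -0.074 for Klrb1c and -0.18 for Ncr1 in FMD against AL, -0.026 for Klrb1c in FMD + VC against FMD, and -0.038 for Gzmb and 0.18 for Gzmk in the interaction. With quantile normalization it was -0.046 for Gzmk in AL + VC against AL, -0.00016 for Klrb1c in FMD against AL, 0.053 for Gzmk in FMD + VC against FMD and 0.10 for Gzmk in the interaction. With the Vpreb1 and Igll1 covariate it was 0.065 for Gzmk in FMD + VC against FMD, and 0.13 for Gzma and 0.052 for Gzmk in the interaction.

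With a mouse left out in turn, the log2 differences that changed direction in at least 1 fit ranged as follows. They ran from -0.064 to 0.52 for Gzmk and -0.0093 to 0.18 for Klrb1c in FMD + VC against AL. The ranges were -0.085 to 0.14 for Klrb1c and -0.22 to 0.049 for Klrd1 in FMD + VC against AL + VC. The ranges were -0.19 to 0.39 for Gzmk, -0.030 to 0.16 for Klrb1c and -0.18 to 0.11 for Nkg7 in AL + VC against AL. The ranges were -0.62 to 0.048 for Gzma, -0.54 to 0.028 for Gzmb, -0.053 to 0.53 for Gzmk, -0.064 to 0.16 for Klrb1c, -0.28 to 0.046 for Klrd1, -0.056 to 0.23 for Ncr1 and -0.21 to 0.078 for Nkg7 in FMD against AL. Further ranges were -0.13 to 0.094 for Gzmk and -0.054 to 0.17 for Klrb1c in FMD + VC against FMD. In the interaction, they ran from -0.48 to 0.19 for Gzma, -0.40 to 0.18 for Gzmk, -0.13 to 0.11 for Klrb1c, -0.14 to 0.19 for Klrd1, -0.10 to 0.34 for Ncr1 and -0.057 to 0.40 for Tbx21.

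No paired analysis was possible because the mouse numbers differ between the groups. The 6 mice per group, the unknown depth and the shrinkage of low genes by rlog limit what can be seen: Gzmk, Gzmb, Prf1 and Ncr1 are the lowest of the 10 genes per length, and an interval such as -0.16 to 1.10 for Ncr1 in FMD + VC against AL is wide.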
